A study of Mus musculus with 4 samples.

Results

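The interferon regulatory factors (IRFs) are the transcription factors that switch on type I interferon genes and the genes that interferons induce. The 8 genes described here, Irf1, Irf2, Irf3, Irf4, Irf5, Irf7, Irf8 and Irf9, are the rows of the gene count table that carry these names, out of 54532 genes listed. DC2.4 is an immortalised dendritic cell line of the mouse. The cells received vehicle (2 libraries) or ginsenoside Rb1, a ginseng saponin, at 10 uM (2 libraries), and RNA was collected after 24 h. No genotype, allele, second agent or other strain is named in the labels, and both groups come from the same line. The libraries are called biological replicates, with nothing on how the cultures were kept apart, and the p-values therefore cover only library-to-library spread, part of which may be technical.

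All IRF proteins share an amino-terminal DNA-binding domain marked by conserved tryptophans, which reads GAAA repeats in promoters. IRF3 and IRF7 are phosphorylated by the kinases TBK1 and IKK-epsilon after viral nucleic acid is sensed and then drive interferon genes. IRF9 joins STAT proteins, STAT2 among them, to form ISGF3, the factor that answers type I interferon, and IRF7 is itself a target of ISGF3. IRF1 is induced by interferon gamma and activates antigen presentation genes, and IRF2 binds the same DNA element and is known as its antagonist. IRF5 acts downstream of Toll-like receptors, and IRF4 and IRF8 pair with PU.1 or BATF proteins to direct dendritic cell subsets.

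The promoters of 3 members are shown because they held matches to motifs through which interferon or inflammatory signals act. RefSeq promoter windows on GRCm38.p6, each running from 250 bases before to 50 after an annotated start, were found for all 8 members, in 11 windows. Both strands were searched for the core of the interferon-stimulated response element (GAAA, any 2 bases, GAAA), for the gamma-activated site (TTCNNNGAA) and for the NF-kB site. The 250 bases before the start are printed 5′ to 3′ on the plus strand, with the matches in capitals. These are chr11:53769764-53770013 for Irf1, chr8:46739495-46739744 for Irf2 and chr8:120736108-120736357 for Irf8.
Irf1: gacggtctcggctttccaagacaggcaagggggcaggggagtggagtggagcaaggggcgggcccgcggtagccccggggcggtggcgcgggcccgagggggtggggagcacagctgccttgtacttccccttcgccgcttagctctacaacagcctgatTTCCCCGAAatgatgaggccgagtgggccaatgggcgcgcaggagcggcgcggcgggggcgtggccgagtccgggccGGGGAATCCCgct
Irf2: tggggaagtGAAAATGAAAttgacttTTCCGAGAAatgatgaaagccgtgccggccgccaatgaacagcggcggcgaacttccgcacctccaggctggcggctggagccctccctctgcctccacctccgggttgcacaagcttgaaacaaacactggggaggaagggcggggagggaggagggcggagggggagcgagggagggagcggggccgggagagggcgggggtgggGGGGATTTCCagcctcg
Irf8: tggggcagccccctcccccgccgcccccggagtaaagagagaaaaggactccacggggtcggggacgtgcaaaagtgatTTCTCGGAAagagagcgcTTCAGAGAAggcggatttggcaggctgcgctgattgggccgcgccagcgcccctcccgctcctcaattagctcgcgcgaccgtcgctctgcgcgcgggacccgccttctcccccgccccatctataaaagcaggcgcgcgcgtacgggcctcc

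In Irf1 the capitals are a gamma-activated site at -90 to -82 from the start and an NF-kB match at -13 to -4. In Irf2 they are a response element core at -241 to -232, a gamma-activated site at -224 to -216 and an NF-kB match at -17 to -8. In Irf8 they are gamma-activated sites at -171 to -163 and -153 to -145. No match overlapped another. Among all 32851 windows of this length 3.44% held the response element core, 8.30% a gamma-activated site and 4.51% an NF-kB match, against 1, 3 and 2 of the 11 IRF windows. The windows of Irf3, Irf4, Irf5, Irf7 and Irf9 held none of the 3 motifs, which says only that these letters are not in these windows. For Irf9 they are chr14:55603735-55604034 and chr14:55604329-55604628. Both lie inside the gene as counted, which starts at 55603571, so the bases before that start were not searched. A match is a description of the sequence and not a measured binding site.

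**Figure D1:**
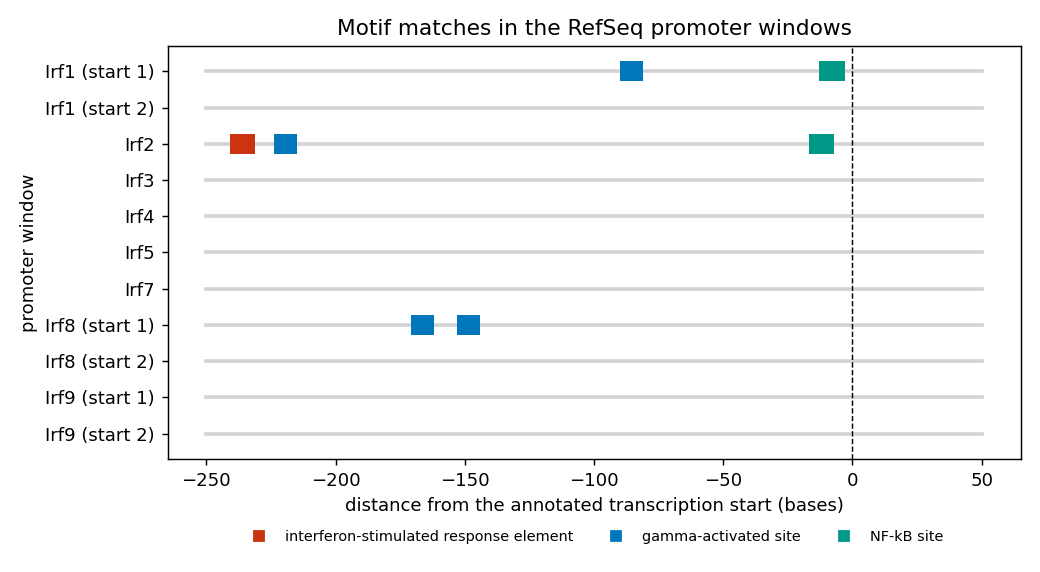
Motif matches in the 11 RefSeq promoter windows of the 8 genes. The x axis gives the distance from the annotated start in bases, grey lines are the windows, coloured blocks are matches, and the dashed line is the start. Matches lie in the windows of Irf1, Irf2 and Irf8.

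The libraries held between 17829784 and 18641021 counts, and 13518 genes had enough counts to be tested. Levels are given as CPM scaled by TMM factors, and group values are means ± SD of n = 2. The quasi-likelihood test of edgeR gave the p-values, adjusted by Benjamini-Hochberg over all 13518 genes. Of 12 haematopoietic and dendritic markers 11 had at least 10 counts in a library, Flt3, a receptor of conventional dendritic cells, being the exception with 0, 0, 2 and 0 counts. Of 7 macrophage markers 5 did, as did 2 of 7 fibroblast, 1 of 6 B cell and 0 of 6 T cell markers. The summed level of the dendritic list was 1975 and 1993 CPM with vehicle and 1169 and 1154 CPM with Rb1. Cd74, the invariant chain gene, made up most of the vehicle sum, at 1054 and 1057 CPM. Of the 11 tested genes of that list 9 fell and 2 rose, where 36.3% of all genes tested fell and 35.7% rose. The median log2 fold change of the 11 was -1.06, against -0.01 for all genes tested. The values ran from -7.18 (H2-Aa) to 1.56 (Zbtb46). Itgax, encoding CD11c, was among those that fell, from 461 and 509 counts with vehicle to 71 and 60 with Rb1. Ptprc, encoding CD45, rose from 110.3 ± 4.32 to 239 ± 2.59 CPM (adjusted p = 7.9e-08). The other gene that rose was Zbtb46, whose values are given with the genes tied to IRF4 or IRF8. When counts were divided by library totals alone, 8 of the list fell, 2 rose and 1 was not called. Of all genes tested 27.1% then fell and 45.3% rose. The summed level of the macrophage list was 1508 and 1500.1 against 942 and 944 CPM. The T cell list stayed below 0.24 CPM, with Cd3e, Cd8b1 and Trbc2 at 0 throughout, the fibroblast list (Col3a1 at 0) stood at 10.8 and 10.1 CPM with vehicle and 0.799 and 0.619 with Rb1, and the B cell list (Ebf1 at 0) at 6.17 and 6.60 against 1.60 and 1.19 CPM. These marker levels moved with the treatment, and their part in the IRF results was not tested. In bulk RNA, fewer cells of a type and less RNA per cell cannot be told apart.

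All 8 IRF genes were tested and all passed an adjusted p of 0.05, as did 72.0% of all genes tested. Irf1, Irf3, Irf4, Irf5, Irf7, Irf8 and Irf9 fell with Rb1 and Irf2 rose, so that 7 of 8 were lower where 36.3% of all genes tested were, and 1 of 8 was higher against 35.7%. The groups did not overlap for any of the 8, which also held for 86.3% of all genes tested. The median log2 fold change was -0.90 over the 8 genes and -0.01 over all genes tested. Scaling by library totals moved the median of all genes to 0.23, turned the calls over all genes from 49.6% to 62.6% higher, and left 6 IRF genes lower and 1 higher. Of all genes tested 27.1% were then lower, 45.3% higher and 72.4% either. With the length trend removed 7 IRF genes were lower and 1 higher, against 36.3% and 33.8% of all genes and 70.1% either way. Fold changes below are relative to the TMM scale.

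**Figure D2:**
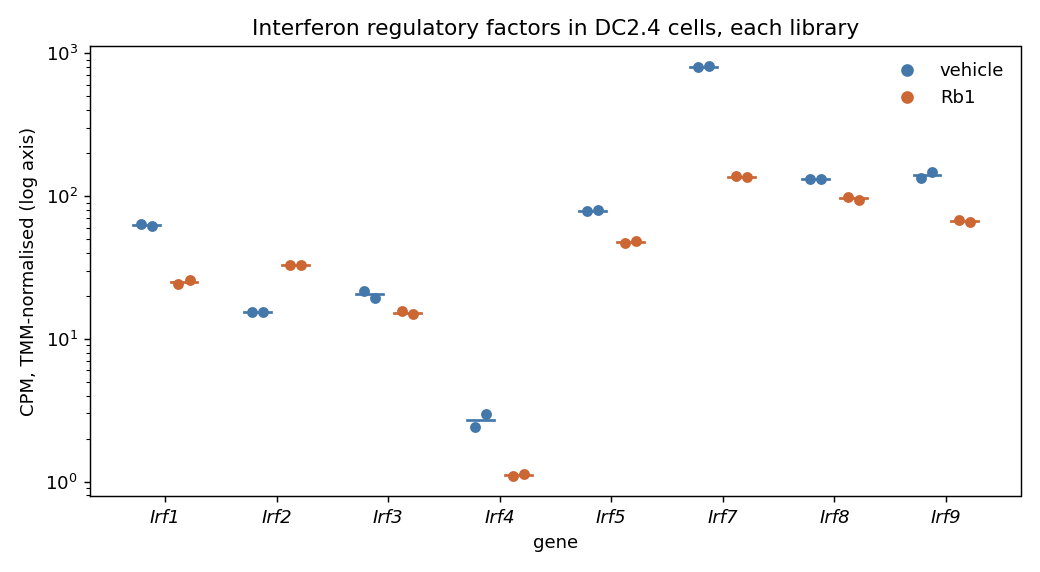
Level of each IRF gene in each library, in CPM after TMM normalization on a log axis. Points are libraries, with vehicle in blue and Rb1 in orange, and lines are group means (n = 2). Both Rb1 points lie below both vehicle points for every gene but Irf2, where they lie above.

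Irf7 (ENSMUSG00000025498, chromosome 7, 141262706 to 141266481, minus strand, GRCm38), the interferon-inducible master regulator of type I interferon genes, changed most. It stood at 801 and 808 CPM in the vehicle libraries and at 137 and 136 CPM in the Rb1 libraries. The libraries of each group nearly coincided, and the groups were far apart. Irf7 fell 5.88-fold (log2 fold change -2.56, SE 0.08, adjusted p = 3.0e-10), and 4.78% of the genes tested had a lower log2 fold change. Within replicate 1 the log2 fold change was -2.54 and within replicate 2 it was -2.57.

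Irf3 (ENSMUSG00000003184, chromosome 7, 44997648 to 45002848), the constitutively present partner of IRF7 in the first wave of interferon induction, changed least. It stood at 21.5 and 19.5 CPM with vehicle and at 15.7 and 14.8 CPM with Rb1. The groups did not overlap, and the gap between their nearest libraries was wider than the distance between the vehicle libraries. The log2 fold change was -0.42 (SE 0.11, adjusted p = 0.00591), a 1.34-fold lower level, and within the replicates it was -0.45 and -0.39. Scaling by library totals gave -0.18 with an adjusted p of 0.198, the largest over its alternatives, and leaving out Rb1 replicate 2 gave -0.38 with an adjusted p of 0.0707, so the call did not hold in either.

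Irf9 (ENSMUSG00000002325, chromosome 14, 55603571 to 55610030), the DNA-binding subunit of ISGF3, stood at 134 and 147 CPM with vehicle and at 67.5 and 65.6 CPM with Rb1. The vehicle libraries differed more than the Rb1 libraries, and both lay above either of them. Irf9 fell 2.11-fold (log2 fold change -1.08, SE 0.08, adjusted p = 2.6e-07), with -0.99 within replicate 1 and -1.16 within replicate 2. Its ISGF3 partner gene Stat2 was lower as well and fell from 96.1 ± 14.2 to 36.9 ± 3.33 CPM at an adjusted p of 5.4e-07 (log2 fold change -1.38, SE 0.11).

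Irf1 (ENSMUSG00000018899, chromosome 11, 53770014 to 53778374), whose promoter above holds a gamma-activated site, stood at 64.1 and 61.4 CPM with vehicle and at 24.3 and 25.7 CPM with Rb1. Both groups were tight and well apart. Irf1 fell 2.51-fold (log2 fold change -1.33, SE 0.09, adjusted p = 1.1e-07), with -1.39 and -1.25 within the replicates. Irf2 (ENSMUSG00000031627, chromosome 8, 46739732 to 46847458), its antagonist at shared elements, stood at 15.4 CPM in both vehicle libraries and at 32.8 CPM in both Rb1 libraries. It was the only member to move up, and it rose 2.13-fold (log2 fold change 1.09, SE 0.10, adjusted p = 1.7e-06), with 1.09 and 1.08 within the replicates.

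Irf2 has the longest gene model of the 8, at 7396 bases. Long models were higher with Rb1 across the table: of 2629 tested models over 7 kb, 65.3% were called higher and 15.1% lower, with a median log2 fold change of 0.60. With the length trend of each library removed Irf2 remained called, at a log2 fold change of 0.68 (SE 0.10, adjusted p = 2.2e-05). Irf8 has the next longest model, at 7055 bases.

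Irf8 (ENSMUSG00000041515, chromosome 8, 120736358 to 120756694), which specifies type 1 conventional dendritic cells, stood at 132 and 131 CPM with vehicle and at 98.6 and 94.1 CPM with Rb1. The groups were apart by much more than either spread. Its log2 fold change was -0.45 (SE 0.07, adjusted p = 1.7e-04), a 1.36-fold lower level, with -0.42 and -0.48 within the replicates. The size depended on the scaling: it was -0.20 with library totals (adjusted p = 0.0479) and -0.83 with the length trend removed (adjusted p = 2.4e-08).

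Irf4 (ENSMUSG00000021356, chromosome 13, 30749226 to 30766976), which supports type 2 conventional dendritic cells, was the scarcest member. Its counts were 40 and 50 in the vehicle libraries and 22 in each Rb1 library, or 2.39, 2.97, 1.10 and 1.13 CPM. The exact Poisson 95% intervals were 1.71 to 3.26 and 2.21 to 3.92 CPM with vehicle and 0.689 to 1.66 and 0.711 to 1.72 CPM with Rb1, and the interval of Rb1 replicate 2 reached just above the lower bound of vehicle replicate 1. They cover counting error only. Irf4 fell by 1.26 on the log2 scale (SE 0.31, adjusted p = 0.00314), with -1.05 and -1.31 within the replicates, and its SE was the largest of the 8. On log2(FPKM + 1) without a filter it was not called (-0.33, adjusted p = 0.0646), a scale that understates the change of low genes.

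Irf5 (ENSMUSG00000029771, chromosome 6, 29526625 to 29541871), which transmits Toll-like receptor signals to inflammatory cytokine genes, stood at 78.4 and 79.6 CPM with vehicle and at 47.1 and 48.4 CPM with Rb1. Each pair of libraries nearly coincided. Irf5 fell 1.65-fold (log2 fold change -0.73, SE 0.08, adjusted p = 6.3e-06), with -0.73 and -0.72 within the replicates. With library totals the log2 fold change was -0.48 (adjusted p = 1.7e-04). In the GENCODE M21 annotation 411 of its 2905 exon bases (14.1%) are shared with Tnpo3 on the opposite strand, whose counts were 1353 and 1673 in the vehicle libraries and 3464 and 3143 in the Rb1 libraries. The sources used here do not give strand use in counting, so reads from that stretch cannot be told apart. Of the other members Irf1 shared 135 exon bases with Gm17334, Irf9 123 with Rnf31, Irf3 88 with Bcl2l12 and Irf7 45 with Phrf1, each under 4% of its exon bases.

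**Figure D3:**
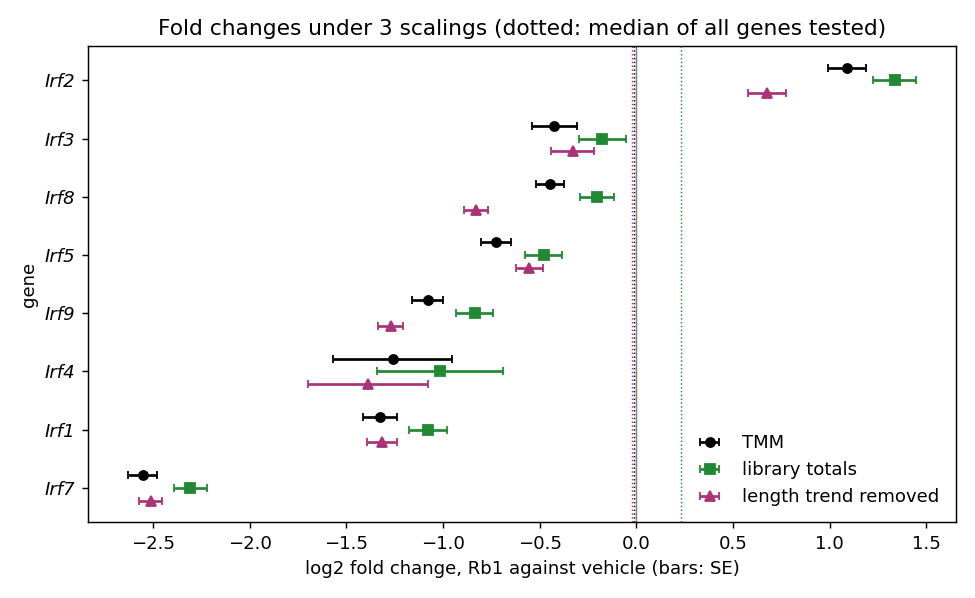
Log2 fold change of each IRF gene with its SE, under TMM normalization (black circles), library totals (green squares) and with the length trend of each library removed (purple triangles). Dotted lines mark the median of all genes tested under each scaling. Irf7 lies farthest left, Irf2 is the only gene right of 0, and Irf3 and Irf8 lie nearest to 0 with library totals.

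Levels between genes were compared per length, in the FPKM the authors deposited. With vehicle the order was Irf7, Irf5, Irf9, Irf8, Irf1, Irf3, Irf2 and Irf4. Irf7 stood at 209 and 213 FPKM and the next gene, Irf5, at 26.6 and 27.3 FPKM. Irf5 and Irf9 (24.6 and 27.2 FPKM) overlapped, and no other neighbours in that order did. At the low end were Irf2, at 2.05 and 2.07 FPKM, and Irf4, at 0.482 and 0.604 FPKM. With Rb1 the order was Irf7, Irf5, Irf8, Irf9, Irf1, Irf2, Irf3 and Irf4. Irf7 stood at 36.4 and 36.0 FPKM there and Irf5 at 16.2 and 16.6 FPKM. Irf2 (4.43 and 4.42 FPKM) and Irf3 (4.56 and 4.29 FPKM) overlapped, and no other neighbours did.

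The summed level of the 8 genes was 304 and 309 FPKM with vehicle and 94.4 and 93.5 FPKM with Rb1. Irf7 made up 68.9% ± 0.124 of that sum with vehicle and 38.5% ± 0.00716 with Rb1. The other members took larger shares of the smaller sum. Irf5 went from 8.79% ± 0.0272 to 17.5% ± 0.426, Irf8 from 6.02% ± 0.0573 to 14.5% ± 0.397 and Irf9 from 8.45% ± 0.478 to 13.1% ± 0.190. Irf2 went from 0.673% ± 0.00466 to 4.71% ± 0.0242, Irf3 from 1.92% ± 0.151 to 4.71% ± 0.167 and Irf1 from 5.11% ± 0.194 to 6.70% ± 0.304. Irf4 stayed under 0.25% in all 4 libraries. A share is free of library scaling but not of the length trend. It also moves when any other member moves, and it was not tested.

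**Figure D4:**
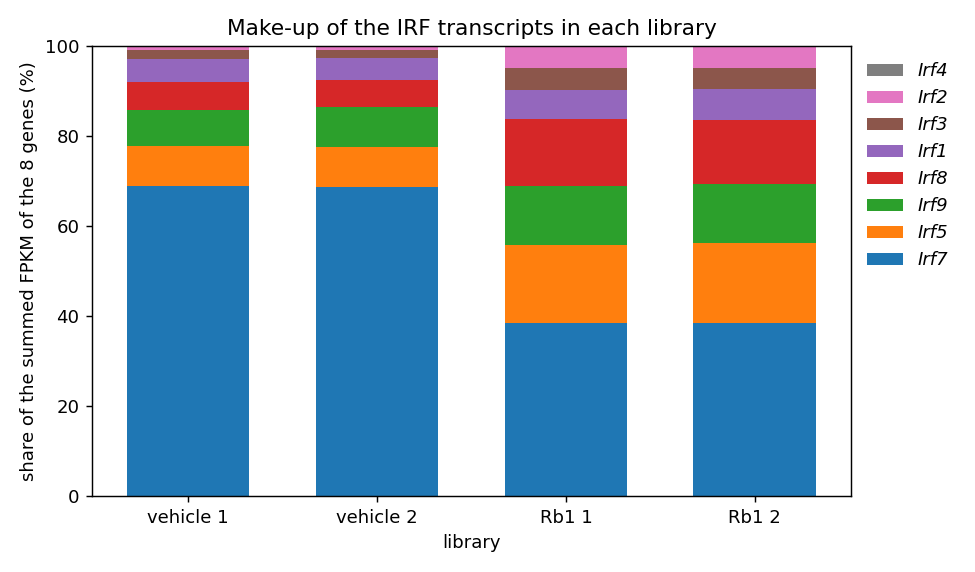
Share of each IRF gene in the summed FPKM of the 8 genes, in percent, for each library. Each bar is 1 library. Irf7 takes 68.9% of the vehicle bars and 38.5% of the Rb1 bars on average, and the other genes fill the rest.

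Ratios between members within a library are likewise free of library scaling, but not of the length trend. With that trend removed the log2 fold change was 0.68 for Irf2 and -0.83 for Irf8, against 1.09 and -0.45 on the TMM scale. The ratios below were not corrected for it. The ratio of Irf1 to Irf2, the activator and its antagonist, was 7.75 and 7.42 with vehicle and 1.38 and 1.46 with Rb1. The ratio of Irf7 to Irf3 was 34.0 and 37.8 with vehicle and 7.98 and 8.39 with Rb1. The levels of Irf1 and Irf2, and those of Irf7 and Irf3, thus stood closer together in the Rb1 libraries. Irf9 over Irf8 was 1.34 and 1.47 with vehicle and 0.897 and 0.913 with Rb1, and Irf5 over Irf3 was 4.32 and 4.85 with vehicle and 3.56 and 3.87 with Rb1. Irf8 over Irf4 was 38.2 and 30.7 with vehicle and 62.3 and 57.6 with Rb1. Groups did not overlap in any of these 5 ratios, and for the levels of single genes this held for 86.3% of all genes tested. Each two-sided exact permutation p was 0.333, raw and adjusted over the 5, which is the smallest that 2 libraries a group allow.

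Interferon ligand genes were almost silent. Of 21 listed, 18 had 0 counts in every library. Ifnb1, the interferon beta gene that IRF3 and IRF7 activate, was below the count filter. Its 24 summed vehicle counts (16 and 8) against 3 with Rb1 (2 and 1) give a ratio of 9.40 for vehicle over Rb1 (exact 95% interval 2.86 to 48.8, counting error only). Ifng, the interferon gamma gene, reached 5 counts in vehicle replicate 1 and 0 in the other 3 libraries. A count of 0 allows up to 3 counts, between 0.150 and 0.180 CPM depending on the library.

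Among 11 genes of interferon receptors, JAK kinases and STAT partners, 5 fell, 2 rose and 4 were not called (median log2 fold change -0.09, against -0.01 for all genes tested). Of all genes tested 36.3% fell, 35.7% rose and 72.0% were called either way, so these counts lie near the background. Besides Stat2, the receptor subunit genes Ifngr2, from 123 ± 3.12 to 65.1 ± 0.253 CPM, and Ifnar2, from 95.8 ± 10.1 to 54.9 ± 0.376 CPM, had the smallest p. The genes that rose were the receptor subunit gene Ifnar1, at a log2 fold change of 0.30, and the kinase gene Tyk2, at 0.31. With library totals 5 fell and 4 rose and the median turned to 0.15, against 27.1% and 45.3% of all genes. With the length trend removed 6 fell and 0 rose, against 36.3% and 33.8%. Without vehicle replicate 2 the number that rose was 4, and without Rb1 replicate 1 it was 0.

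Of 18 kinases and adaptors upstream of IRF3, IRF5 and IRF7, 10 fell, 6 rose and 2 were not called (median -0.41), where 36.3% of all genes tested fell and 35.7% rose. Ikbke, which encodes the IRF3 and IRF7 kinase IKK-epsilon, fell from 108 ± 5.77 to 28.5 ± 0.357 CPM at an adjusted p of 5.0e-09 and a log2 fold change of -1.92 (SE 0.08). Tbkbp1, an adaptor of TBK1, fell from 122 ± 3.09 to 60.9 ± 1.46 CPM, and the ubiquitin ligase gene Traf6 from 45.3 ± 2.54 to 24.6 ± 0.0886 CPM. Mavs, the mitochondrial adaptor of RNA sensors, went the other way and rose from 38.2 ± 2.11 to 72.4 ± 2.89 CPM. With library totals 8 fell and 7 rose (median -0.16), against 27.1% and 45.3% of all genes. With the length trend removed 11 fell and 4 rose (median -0.38), against 36.3% and 33.8%.

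Of 10 genes of DNA-binding partners and IRF2-binding proteins, 8 were tested, of which 5 rose and 3 fell (median 0.28), where 35.7% of all genes tested rose and 36.3% fell. Spi1, encoding PU.1 and also 1 of the 12 dendritic markers, fell from 190.4 ± 19.7 to 105 ± 4.91 CPM, and Batf, whose product pairs with IRF4 and IRF8 on composite elements, fell from 32.9 ± 4.49 to 13.2 ± 1.96 CPM. Batf2, of the same family, was the third that fell, from 26 and 15 counts to 2 and 0 (adjusted p = 3.7e-04). Ikzf1, encoding Ikaros, rose by a log2 fold change of 0.82 (SE 0.08, adjusted p = 2.7e-06) and Tcf3, an E protein gene, from 49.0 ± 0.837 to 70.3 ± 2.41 CPM. Irf2bp1, Irf2bp2 and Irf2bpl, whose products include the IRF2-binding corepressors, made up the rest of the genes that rose, at log2 fold changes of 0.38, 0.29 and 0.28, and Irf2bp2 was not called with the length trend removed (0.13, adjusted p = 0.122). Spib had at most 3 counts and Batf3 at most 5. Leaving out either Rb1 replicate took the number that rose from 5 to 3.

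Of 10 restraints on IRF activity and interferon signalling 8 fell and 2 rose (median -0.67), where 36.3% of all genes tested fell and 35.7% rose. Usp18, an interferon-induced inhibitor of the type I receptor, fell from 303 ± 8.51 to 37.5 ± 0.194 CPM at an adjusted p of 7.8e-11 (log2 fold change -3.01, SE 0.07). Socs1, a JAK inhibitor, fell from 7.49 ± 1.17 to 0.784 ± 0.234 CPM, and Trim21, a ubiquitin ligase that acts on IRF proteins, from 22.6 ± 1.59 to 6.69 ± 0.998 CPM. The genes that rose were Ptpn6, encoding the phosphatase SHP-1, from 256 ± 1.48 to 398 ± 18.4 CPM (log2 fold change 0.64), and Rbck1, encoding the ubiquitin ligase subunit HOIL-1, at a log2 fold change of 0.38. With library totals 5 fell and 2 rose, against 27.1% and 45.3% of all genes.

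All 19 genes listed as targets of ISGF3 and IRF7 fell, at log2 fold changes from -4.81 (Zbp1) to -0.78 (Ddx58), with a median of -2.27, where 36.3% of all genes tested fell. Under library totals 19 also fell, against 27.1% of all genes, and with the length trend removed 19 fell, against 36.3%. Like the 8 members and the other lists, this list was chosen with earlier results of these data known. The contrast with all genes is therefore a description and not an independent test. Cmpk2, a mitochondrial nucleotide kinase gene induced by interferon, went from 172 ± 0.511 to 11.9 ± 1.31 CPM at an adjusted p of 8.3e-11 (log2 fold change -3.85, SE 0.10). Of 17 genes listed as targets of IRF1, 15 were tested, 14 fell and 1 rose (median -0.96), where 36.3% of all genes tested fell and 35.7% rose. With library totals 10 fell and 1 rose, against 27.1% and 45.3%. The guanylate-binding protein gene Gbp2 fell from 90.5 ± 6.56 to 6.12 ± 0.185 CPM. The gene that rose was Nlrc5, the class I transactivator, from 87.2 ± 7.84 to 119 ± 4.03 CPM at an adjusted p of 4.9e-04 (log2 fold change 0.45, SE 0.08), named after its value was seen. With the length trend removed the value of Nlrc5 was -0.04 (adjusted p = 0.634), neither called nor in the same direction. The 1 gene called higher there was Casp1, the inflammasome protease gene, at 0.17 (adjusted p = 0.0480) against -0.31 on the TMM scale (adjusted p = 0.0127), and 11 fell. Ciita and Il12b had too few counts to be tested.

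Of 11 genes tied to IRF4 or IRF8 in dendritic cells 8 were tested, of which 6 fell and 2 rose (median -0.95), where 36.3% of all genes tested fell and 35.7% rose. With library totals 4 fell and 2 rose, against 27.1% and 45.3%. With the length trend removed 5 fell and 2 rose, against 36.3% and 33.8%. Id2, a regulator needed for type 1 conventional dendritic cells, fell by 3.56 on the log2 scale (SE 0.13, adjusted p = 1.5e-09). Bcl6, a repressor gene that IRF8 is known to regulate in B cells, rose from 21.4 ± 1.47 to 63.7 ± 2.05 CPM and Zbtb46, a conventional dendritic cell factor, from 2.03 ± 0.262 to 5.98 ± 0.511 CPM. Their models are long, at 6700 and 8508 bases. The log2 fold changes of Bcl6 and Zbtb46 were 1.57 and 1.56 on the TMM scale, and 1.23 and 1.07 with the length trend removed. Clec9a and Mgl2 had at most 1 count in any library.

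**Figure D5:**
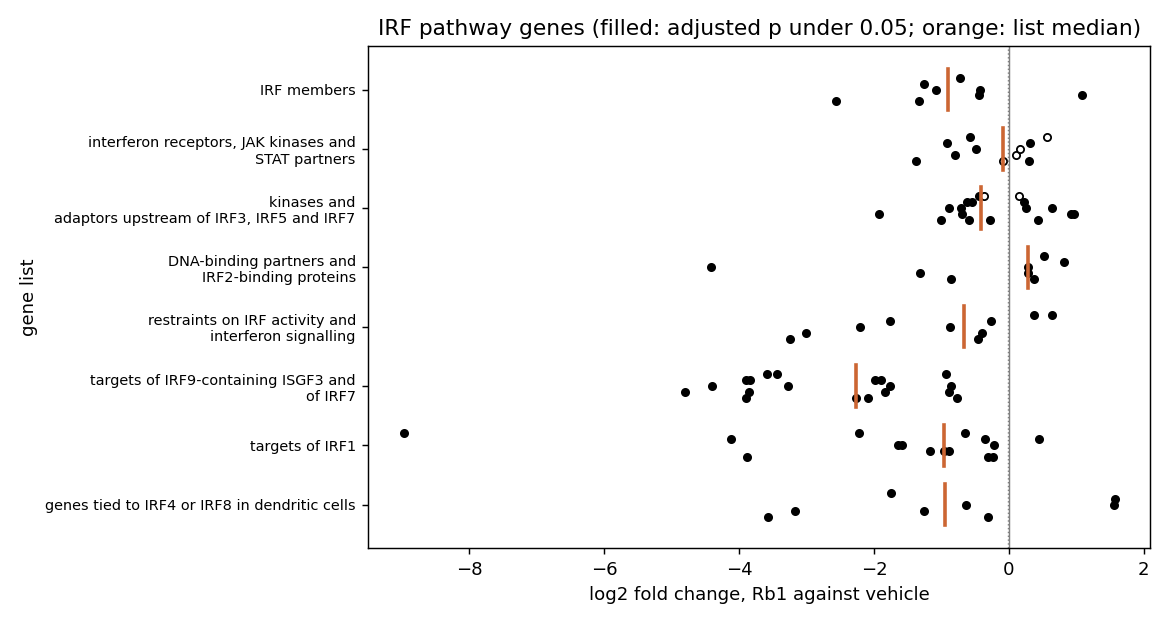
Log2 fold change of each tested gene in the IRF list and 7 pathway lists (x axis, Rb1 against vehicle). Filled points passed an adjusted p of 0.05, open points did not, and orange bars are list medians. All 19 targets of ISGF3 and IRF7 lie left of 0, while the DNA-binding partners lie on both sides.

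The genes whose profiles lay closest to those of Irf7 and Irf2 were sought among 11443 other tested genes with a symbol that is not a provisional model. Likeness was the Euclidean distance between log2 CPM centred on each gene's mean over the 4 libraries. Closest to Irf7 were Tgm1 (0.0513), Col11a2 (0.0833), Cyp4f18 (0.0981), Igtp (0.114) and Atg9b (0.115). Igtp encodes an interferon-inducible GTPase and fell from 70.9 and 65.5 CPM to 11.1 and 10.8 CPM. Closest to Irf2 were Vegfb (0.0217), Isoc1 (0.0226), Rcc2 (0.0286), Exoc6 (0.0307) and Rai14 (0.0317). Vegfb, a growth factor gene, rose from 24.6 and 24.7 CPM to 51.7 and 51.6 CPM. With 4 libraries in 2 groups such likeness is mostly likeness of the fold change.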

How the data were processed

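The authors deposited raw counts per gene and FPKM per gene for 4 libraries, with replicates not pooled. Reads were paired-end from total RNA, per the labels' protocols. No source used here gives the aligner, counting program, kit, strand use or annotation release. GRCm39 and mm39 stand in the submitters' processing notes, but of 54409 gene IDs found in GENCODE M21 98.3% have the same coordinates there, so coordinates are given as GRCm38. The deposited FPKM divide by 0.908 and 0.943 (vehicle) and 1.09 (both Rb1 libraries) times the count total.

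Counts were tested with edgeR 4.0.16 (TMM, filterByExpr, robust quasi-likelihood fit, group only, 2 residual degrees of freedom, two-sided, threshold 0.05). The SE is the size of the log2 fold change over the square root of F. In simulated counts with 100 genes changed 1.5-fold and 100 changed 2-fold, the fit called 63 and 75 of them. It also called 10 of 13318 unchanged genes. Far fewer genes changed there than were called in these data, and no length trend was simulated. The replicate number stands under batch in the labels. It paired libraries only in an alternative fit (the replicate block) and in the fold changes within replicates, and not in the main fit. Deviations from the group mean correlated at -0.05 between same-numbered libraries. Replicates differed by more than sampling noise, with a chi-square per degree of freedom of 11.8 (vehicle) and 2.87 (Rb1) over genes with at least 20 counts. Alternatives were other scalings and count filters, DESeq2 1.42.0, limma 3.58.1 (voom, and log2 FPKM with pseudocounts of 1 and 0.1 and a minimum mean of 0.5), a length correction (loess, span 0.3), the replicate block and each library left out.

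The 8 members and the gene lists were chosen with earlier results of these data known. All members were named. From each list up to 4 called genes with the smallest p could be named, and not all of these are given. Nlrc5, Casp1, Ddx58, Batf2, Irf2bp1, Irf2bp2, Irf2bpl, Ifnar1, Tyk2, Ptpn6, Rbck1, Cd74 and H2-Aa lie outside that rule and were named after their values were seen. A few items are not reported here.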

Additional observations from a re-analysis of the deposited data

How the results depend on the processing

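Of 126 values of the 8 genes under alternatives 123 kept their direction and their side of the threshold, and 0 reversed. Irf3 was not called with library totals (-0.18, adjusted p = 0.198), and with each library left out it ran from -0.49 to -0.36, not called without Rb1 replicate 2. Irf4 was not called on log2(FPKM + 1) without a filter (-0.33, adjusted p = 0.0646). It had no value on filtered FPKM. With a library left out, the lone library is assumed to vary like the other group. Of 288 list counts 269 stayed within 1.5 times. A count of 0 in both settings was scored as unchanged. Ligand counts could not move wherever no ligand passed the count filter, so the 269 overstate the stability. Ligands called lower numbered 1 in place of 0 without a count filter, on log2(FPKM + 1), on log2(FPKM + 0.1) and on unfiltered log2(FPKM + 1), and 0 to 1 with libraries left out. Receptor and JAK-STAT genes called higher numbered 4 with library totals, 1 on unfiltered log2(FPKM + 1), 0 with the length trend removed, 0 with the length trend removed and the replicate block, and 0 to 4 with libraries left out. DNA-binding partners called higher numbered 3 to 5 with libraries left out. Restraints called lower numbered 5 with library totals. Targets of IRF1 called higher numbered 0 with the length trend removed and the replicate block. Genes tied to IRF4 or IRF8 called higher numbered 1 on log2(FPKM + 1) and 1 on log2(FPKM + 0.1). The cause was not tested. The replicate block changed no call of the 8 genes (Irf7 -2.56, Irf3 -0.42, Irf2 1.09), with 4799 genes higher and 4854 lower. Depth limits Irf4, whose counting error reached 21.3%, and the ligand genes.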
